A study of Mus musculus with 4 samples.

Results

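Foxp3 and 8 genes for surface proteins associated with regulatory T (Treg) cells, Gpr83, Izumo1r, Nrp1, Lrrc32, Itgae, Itgb8, Nt5e and Entpd1, were examined in naive T cells and in cells kept for 3 h under conditions that induce Treg cells (iTreg), of wild-type (WT) mice and of mice lacking the Nr4a nuclear receptors (Nr4a-TKO). They were taken by gene name, and every probe of each was kept. This gave 24 probes for the 9 genes among 56605 probes on the array and 27192 genes with a symbol.

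Foxp3 is the transcription factor that defines Treg cells, and it holds their suppressive programme in place. Several proteins on the Treg surface carry out or accompany that programme. Lrrc32 (GARP) anchors latent TGF-β, and Itgb8, paired with the integrin αv chain, releases the active cytokine from it. Entpd1 (CD39) and Nt5e (CD73) together convert extracellular ATP to adenosine, which restrains T cells. Nrp1 (neuropilin-1) is a receptor for semaphorins and VEGF that marks many Treg cells made in the thymus, and Itgae (CD103) is the integrin chain that holds lymphocytes to epithelium. Gpr83 is a G-protein-coupled receptor found on Treg cells, and Izumo1r, formerly Folr4, is a folate-receptor relative known as the egg receptor Juno and as FR4 on T cells. The Nr4a receptors are induced by T cell receptor signals and are known to act on the Foxp3 locus.

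RNA of each of 4 groups was hybridised to 1 single-colour Agilent array. Naive T and iTreg 3 h cells were each measured in WT and in Nr4a-TKO, with 1 array a group and no measure of the spread between animals. No test was run, and a 2-fold difference is used below as a description only. The naive CD4+ T cells were sorted from spleen and lymph nodes as CD25low, CD44low, CD62Lhigh and Foxp3-, and the mice were 6 to 8 weeks old, of both sexes. The iTreg cells were the same kind of cells after 3 h on plate-bound anti-CD3 (2 μg/ml), with anti-CD28 (0.5 μg/ml), anti-IFN-γ (1 μg/ml), anti-IL-4 (1 μg/ml), IL-2 (10 ng/ml) and TGF-β1 at 0.2 or 0.5 ng/ml, and the labels do not say which of these doses went on an array. Nr4a-TKO stands for loss of Nr4a1 and Nr4a2, both floxed, together with a germline deletion of Nr4a3, and the Cre driver is not given in the sources used here. According to the methods, polyclonal naive T cells were taken from bone marrow chimeras made in Rag2-/- hosts (marrow of both genotypes mixed in the case of Nr4a-TKO, WT marrow alone for the controls), while OT-II transgenic cells of a Rag2-/- background were sorted through the CD25low gate that the labels give. Which of these sources the arrays used was therefore not settled. Foxp3- cells were gated with a human CD2-CD52 reporter knocked into the Foxp3 locus, so the sort itself selected on the Foxp3 locus in all 4 groups.

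Values below are scaled intensities, the scanner software's background-subtracted intensity of a probe brought to a common 75th percentile across the 4 arrays. A difference is in log2 units, and its error is the SD expected from repeated spots of other probes of like brightness on the same arrays, which covers the array and not the animals. A probe that was not well above background on one array (called dim) gives only a bound for its difference, set at the lowest signal that was well above background there, between 5.59 and 7.08. Across the arrays 64.9% to 67.6% of probes were well above background. All 6 T cell markers were well above background on all 4 arrays, and the summed level of 7 naive T markers was 12570 on the WT naive T array and 2623 on the WT iTreg 3 h array. Nr4a1 and Nr4a2 were not lower in Nr4a-TKO at 3 h. The Nr4a1 probe read 2863 on the WT and 4052 on the Nr4a-TKO iTreg 3 h array, and both Nr4a2 probes were also higher in the latter. For Nr4a3, 2 of 3 probes were lower there, with differences of -1.55 and -1.97, and the other differed by 0.22. Whether these probes lie inside the deleted parts was not analysed here, so an array called Nr4a-TKO below is one labelled so, and each higher or lower stated between genotypes depends on that label.

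The sequences around the transcription starts of 5 members are shown because the results below turn on these genes, and a motif of the Nr4a family was looked for in them. Each is the RefSeq window of GRCm38.p6 from 250 bases before to 50 bases after a start, written 5′ to 3′ on the gene's strand. Of the 9 members, 7 had such a window, with 9 windows in all. Foxp3 has a window at chrX:7579426-7579725 and a second at chrX:7580233-7580532, both on the plus strand. The other windows lie at chr9:14859960-14860259 (plus) for Gpr83, chr9:14903718-14904017 (minus) for Izumo1r, chr8:128358823-128359122 (plus) for Nrp1 and chr9:88327359-88327658 (plus) for Nt5e. Capitals mark AGGAAG or its reverse complement CTTCCT, a motif of Ets factors.
Foxp3, first start: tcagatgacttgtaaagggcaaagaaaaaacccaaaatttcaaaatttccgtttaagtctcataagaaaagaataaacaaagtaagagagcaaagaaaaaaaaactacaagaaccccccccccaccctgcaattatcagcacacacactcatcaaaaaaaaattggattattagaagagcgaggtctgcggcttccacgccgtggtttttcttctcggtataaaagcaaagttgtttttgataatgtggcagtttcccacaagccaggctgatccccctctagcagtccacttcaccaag
Foxp3, second start: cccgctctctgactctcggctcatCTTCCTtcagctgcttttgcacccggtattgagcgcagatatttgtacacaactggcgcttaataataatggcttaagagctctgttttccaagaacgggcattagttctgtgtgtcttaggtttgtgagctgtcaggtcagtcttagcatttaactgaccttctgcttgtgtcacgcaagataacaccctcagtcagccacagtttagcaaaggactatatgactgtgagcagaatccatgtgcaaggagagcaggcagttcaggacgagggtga
Gpr83: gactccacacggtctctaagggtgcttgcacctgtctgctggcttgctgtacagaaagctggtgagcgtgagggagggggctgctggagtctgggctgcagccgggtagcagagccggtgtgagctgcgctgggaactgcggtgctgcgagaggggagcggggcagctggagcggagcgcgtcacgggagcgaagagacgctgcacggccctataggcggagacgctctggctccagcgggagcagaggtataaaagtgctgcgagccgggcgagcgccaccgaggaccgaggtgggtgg
Izumo1r: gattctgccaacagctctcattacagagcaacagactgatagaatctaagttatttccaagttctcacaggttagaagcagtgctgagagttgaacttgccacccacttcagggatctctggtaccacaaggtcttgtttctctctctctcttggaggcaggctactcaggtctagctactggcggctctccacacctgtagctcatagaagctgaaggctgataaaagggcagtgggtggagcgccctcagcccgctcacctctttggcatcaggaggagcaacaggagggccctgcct
Nrp1: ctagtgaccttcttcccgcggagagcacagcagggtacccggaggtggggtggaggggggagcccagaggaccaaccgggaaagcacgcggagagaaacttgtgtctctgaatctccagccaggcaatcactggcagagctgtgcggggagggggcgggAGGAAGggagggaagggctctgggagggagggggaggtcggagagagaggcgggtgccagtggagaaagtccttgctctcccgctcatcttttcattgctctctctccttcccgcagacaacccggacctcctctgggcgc
Nt5e: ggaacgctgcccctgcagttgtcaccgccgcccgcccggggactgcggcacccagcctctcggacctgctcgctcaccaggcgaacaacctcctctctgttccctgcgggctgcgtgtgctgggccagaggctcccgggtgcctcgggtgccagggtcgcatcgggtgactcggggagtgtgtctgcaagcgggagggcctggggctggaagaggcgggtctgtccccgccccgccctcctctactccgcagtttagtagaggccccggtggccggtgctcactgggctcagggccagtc

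The Nr4a monomer motif AAAGGTCA, searched on both strands, was in none of the members' windows, and it was in 1.51% of all 32851 windows. At so low a share, its absence from so few windows carries little information. The paper writes the motif as AAA(T/G)GTCA, and the form with T was not searched for. The Ets motif was in a window of 3 of the 7 members, Foxp3, Nrp1 and Entpd1, against 38.4% of all 27025 genes with a window. In Foxp3 it stood once, in the second window, on the opposite strand. The absence of these letters says nothing about binding outside these windows, or at other forms of the motif inside them.

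Foxp3 was lower on both Nr4a-TKO arrays. Its probe, at chrX:7172301-7172360 on mm9, read 148.2 on WT naive T, 58.4 on Nr4a-TKO naive T, 167.8 on WT iTreg 3 h and 60.4 on Nr4a-TKO iTreg 3 h. Both WT values lay above both Nr4a-TKO values, and neither genotype differed by 2-fold between naive T and 3 h. The difference from WT was -1.34 ± 0.16 in naive T, a 2.54-fold lower level, and -1.47 ± 0.16 at 3 h, a 2.78-fold lower level. The WT change from naive T to 3 h was 0.18 ± 0.17 and the Nr4a-TKO change 0.05 ± 0.15, each near its spot error. Of 5 other Treg markers the summed level was 1331 on the WT naive T and 1219 on the Nr4a-TKO naive T array, and 2749 and 3087 at 3 h. Within that list Ikzf2 was lower with Foxp3 in naive T (116.4 on WT, 42.1 on Nr4a-TKO) and not at 3 h (56.0 and 62.4), Ctla4 was 0.82 higher in Nr4a-TKO naive T, and Il2ra and Tnfrsf18, which make up most of the sum, differed by -0.03 and -0.25 there. Fewer Foxp3-expressing cells and less Foxp3 RNA per cell cannot be told apart in bulk RNA. With an offset of 50 added after background correction, the differences were -0.89 and -0.94, under 2-fold.

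**Figure D1:**
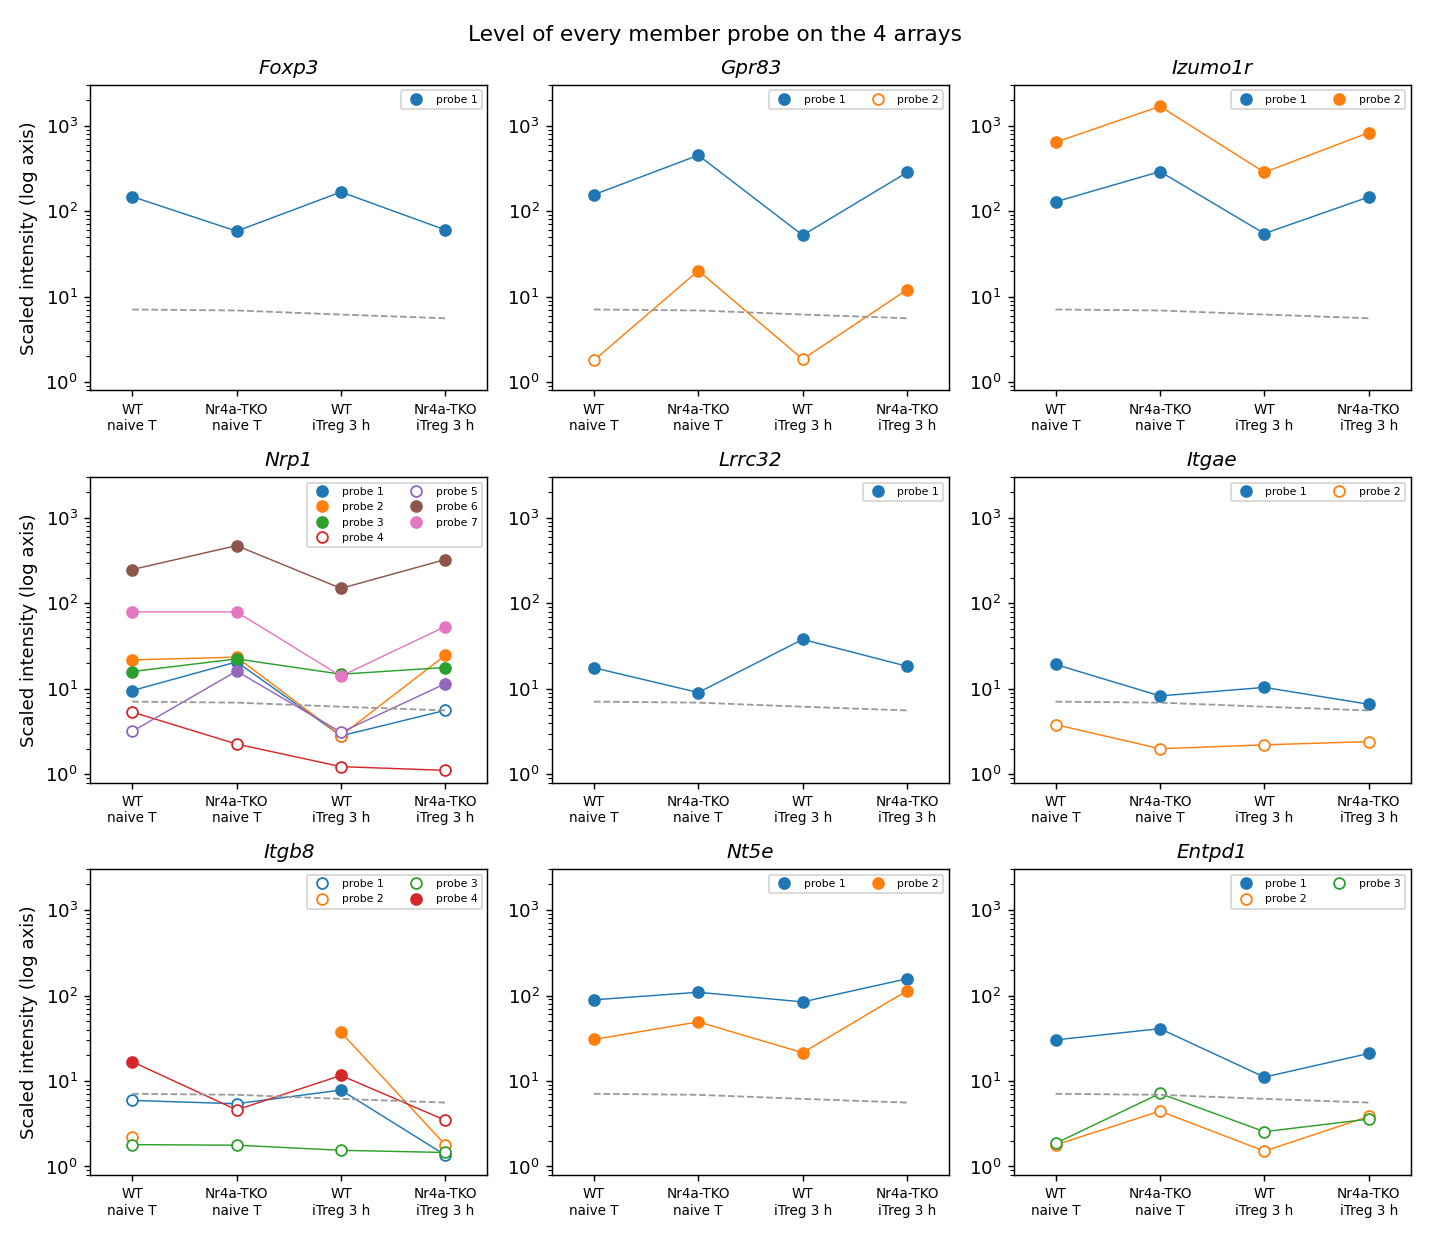
Scaled intensity of all 24 member probes on the 4 arrays, 1 panel a gene, with a log axis; a filled point was well above background, an open point was not, and the dashed line is each array's lowest well-above-background signal. Foxp3 was lower and Gpr83 and Izumo1r were higher on the Nr4a-TKO arrays at both stages, and 5 probes were open on all 4 arrays.

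Gpr83 and Izumo1r, which neighbour each other on chromosome 9, were higher on the Nr4a-TKO arrays at both stages. The Gpr83 probe at chr9:14673600-14673659 read 156.0 on WT naive T, 451.4 on Nr4a-TKO naive T, 52.3 on WT iTreg 3 h and 284.3 on Nr4a-TKO iTreg 3 h. Its difference from WT was 1.53 ± 0.13 in naive T and 2.44 ± 0.13 at 3 h, 2.89-fold and 5.43-fold higher. The WT change of Gpr83 in culture was -1.58 ± 0.17 and the Nr4a-TKO change -0.67 ± 0.06, so the gap between the genotypes was wider at 3 h. The second Gpr83 probe was dim on both WT arrays and read 20.2 and 12.1 on the Nr4a-TKO arrays, at least 2.85-fold higher in naive T and at least 1.95-fold higher at 3 h.

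Izumo1r gave the same order of arrays on both of its probes. The probe at chr9:14705178-14705237 read 640.9 on WT naive T, 1684 on Nr4a-TKO naive T, 284.9 on WT iTreg 3 h and 829.3 on Nr4a-TKO iTreg 3 h. The probe at chr9:14704467-14704526 read 128.9, 291.0, 54.8 and 146.6 on the same arrays. Against WT, the first was higher by 1.39 ± 0.06 in naive T and 1.54 ± 0.07 at 3 h, and the second by 1.18 ± 0.13 and 1.42 ± 0.16. In culture the WT change of the first was -1.17 ± 0.06 and the Nr4a-TKO change -1.02 ± 0.06, so that Izumo1r was lower after culture in both genotypes.

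The genes on either side did not share the size of this difference. Of the 8 nearest genes looked at, Ankrd49 and Mre11a before Gpr83, and Panx1, Hephl1 and Med17 after Izumo1r, were well above background on all 4 arrays. Their differences between Nr4a-TKO and WT ran from -0.08 to 0.56 over both stages, against 1.39 to 2.44 for the brightest probes of Gpr83 and Izumo1r. Fut4, 1700012B09Rik and Vstm5 were dim on all 4 arrays. No error between animals stands behind these values.

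**Figure D2:**
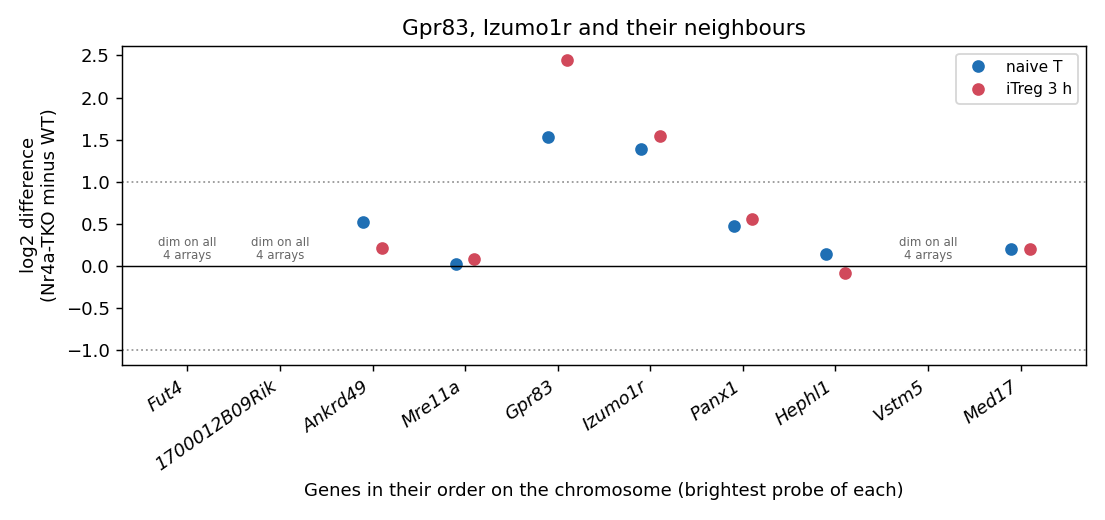
Log2 difference between Nr4a-TKO and WT for the brightest probe of Gpr83, Izumo1r and their neighbours, in gene order, in naive T and at 3 h; dotted lines mark 2-fold. Gpr83 and Izumo1r lie above 2-fold at both stages and the 5 measured neighbours do not.

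Nrp1 had 7 probes, and they did not give 1 answer. The probe with the highest level, in the RefSeq transcript at chr8:131027137-131027196, read 248.7 on WT naive T, 474.0 on Nr4a-TKO naive T, 149.7 on WT iTreg 3 h and 325.9 on Nr4a-TKO iTreg 3 h. It was higher on the Nr4a-TKO arrays by 0.93 ± 0.06 in naive T, under 2-fold, and by 1.12 ± 0.13 at 3 h. Another RefSeq probe, at chr8:131028306-131028365, read 79.5, 79.4, 14.1 and 53.6 on the same arrays. There the genotypes were equal in naive T (-0.00 ± 0.16) and apart at 3 h (1.93 ± 0.32), and the WT level dropped by 2.50 ± 0.33 in culture. In naive T, 2 of the 6 probes with a value were over 2-fold higher in Nr4a-TKO, probe 1 by 1.12 ± 0.39 and probe 5 as a bound of at least 1.19, and with the steps of RMA these were 0.72 and 0.97, under 2-fold. At 3 h no Nrp1 probe with a value was lower in Nr4a-TKO. Of these, 3 were over 2-fold higher, 1 of them as a bound of at least 4.0-fold, and 2 were higher by less, 0.26 ± 0.40 and at least 0.90. With the steps of RMA the 3 were 1.05 (probe 6), 1.43 (probe 7) and 1.60 (probe 2). With an offset of 50 added after background correction they were 0.85, 0.64 and 0.45, all under 2-fold. Probe 4 was dim on all 4 arrays and probe 1 on both 3 h arrays. Of the 7 probes, 4 match transcripts outside the gene's RefSeq set, among them the one with a bound of 4.0-fold.

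Lrrc32 was the 1 member with a probe over 2-fold higher after culture in both genotypes, and its values were lower in Nr4a-TKO. Its probe, at chr7:105650282-105650341, read 17.6 on WT naive T, 9.1 on Nr4a-TKO naive T, 37.9 on WT iTreg 3 h and 18.4 on Nr4a-TKO iTreg 3 h. The WT change in culture was 1.1 ± 0.29 and the Nr4a-TKO change 1.02 ± 0.38. Against WT the level was -0.96 ± 0.39 in naive T and -1.04 ± 0.29 at 3 h. Platelets also carry Lrrc32. Of 4 platelet markers, Pf4 and Gp9 were dim on all 4 arrays, and the summed level of the list ran from 19.0 to 25.6. Ppbp was above background on the Nr4a-TKO iTreg 3 h array alone, at 9.5. There it was higher than in WT, by a bound of 0.62, where Lrrc32 was lower. Itga2b, the 1 platelet marker measured on all 4, moved in the same directions as Lrrc32. It read 14.9 on WT naive T, 9.3 on Nr4a-TKO naive T, 21.6 on WT iTreg 3 h and 12.9 on Nr4a-TKO iTreg 3 h. The part of platelets in the Lrrc32 values was not tested. These values are near the floor of the arrays, and all 4 differences lie close to 2-fold. With the steps of RMA, the change in Nr4a-TKO and the difference at 3 h were under 2-fold. Those steps replace the background correction as well as the 75th percentile.

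Itgb8, the partner of Lrrc32 in the release of TGF-β, was at or near background on most arrays. None of its 4 probes was well above background on all 4. The RefSeq probe, at chr12:120401278-120401337, read 37.1 on WT iTreg 3 h, was dim on WT naive T and on Nr4a-TKO iTreg 3 h, and had an outlier flag on Nr4a-TKO naive T, so that no value is given there. The WT level was at least 5.24-fold higher after culture than before it, and the Nr4a-TKO level at 3 h was at least 6.63-fold below WT. With an offset of 50 added after background correction, these were 0.64 and -0.70 on the log2 scale, under 2-fold. Without background correction they were 0.98 and -1.08. Probe 4 was dim on both Nr4a-TKO arrays and read 16.8 on WT naive T and 11.6 on WT iTreg 3 h, at least 2.44-fold and 2.08-fold above Nr4a-TKO. With the steps of RMA these bounds were -0.95 and -0.79 on the log2 scale, under 2-fold. Probe 1 was well above background on the WT iTreg 3 h array alone, at 7.8, and probe 3 was dim on all 4 arrays. The αv chain, Itgav, differed by -0.40 in naive T and -0.26 at 3 h.

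Itgae was measured by 1 of its 2 probes. That probe spans chr11:72945236-72946221 and read 19.3 on WT naive T, 8.3 on Nr4a-TKO naive T, 10.4 on WT iTreg 3 h and 6.6 on Nr4a-TKO iTreg 3 h. The Nr4a-TKO level was lower at both stages, with differences of -1.22 ± 0.39 in naive T and -0.66 ± 0.40 at 3 h, the latter less than 2-fold. The WT change of Itgae in culture was -0.89 ± 0.40 and the Nr4a-TKO change -0.32 ± 0.38, the second within its spot error. The other probe was dim on all 4 arrays. With the steps of RMA the difference was -0.97 in naive T, under 2-fold, and -0.11 at 3 h, and the Nr4a-TKO change was 0.24. With an offset of 50 added after background correction, the difference at 3 h was -0.02. The lower level at 3 h thus depends on the processing.

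Nt5e was higher after culture in Nr4a-TKO and not in WT. Its RefSeq probe, at chr9:88266616-88266675, read 30.7 on WT naive T, 49.2 on Nr4a-TKO naive T, 21.4 on WT iTreg 3 h and 113.7 on Nr4a-TKO iTreg 3 h. Its WT change in culture was -0.52 ± 0.33 and its Nr4a-TKO change 1.21 ± 0.15, and the WT value shrank to -0.20 with the steps of RMA. The Nr4a-TKO level was higher by 0.68 ± 0.16 in naive T and by 2.41 ± 0.32 at 3 h, 5.31-fold. The other Nt5e probe, which is not in a RefSeq transcript of the gene, gave 89.1, 109.2, 84.3 and 157.1 on the same arrays, with a WT change of -0.08 ± 0.17 and an Nr4a-TKO change of 0.52 ± 0.15. Both probes thus had their highest level on the Nr4a-TKO iTreg 3 h array, and they differ in size.

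Entpd1, which acts before Nt5e on ATP, was measured on all 4 arrays by 1 probe of 3, and that probe is not in a RefSeq transcript of the gene. It read 30.3 on WT naive T, 41.0 on Nr4a-TKO naive T, 11.1 on WT iTreg 3 h and 21.0 on Nr4a-TKO iTreg 3 h. Its WT change in culture was -1.45 ± 0.33 and its Nr4a-TKO change -0.96 ± 0.28, the first of them -0.99 with the steps of RMA, and the Nr4a-TKO level was higher by 0.44 ± 0.16 in naive T and 0.92 ± 0.40 at 3 h, both under 2-fold. The 2 RefSeq probes were dim on all 4 arrays. B cells carry both enzymes. The 6 B cell markers were all well above background on all 4 arrays. Their summed levels were 921 on WT naive T, 1345 on Nr4a-TKO naive T, 662 on WT iTreg 3 h and 1209 on Nr4a-TKO iTreg 3 h. Of these, Cd79a was 1.22 and H2-Aa 1.45 higher in Nr4a-TKO at 3 h on the log2 scale, and Ms4a1 was 0.05 higher. The part of such cells in the Nt5e and Entpd1 values was not tested.

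**Figure D3:**
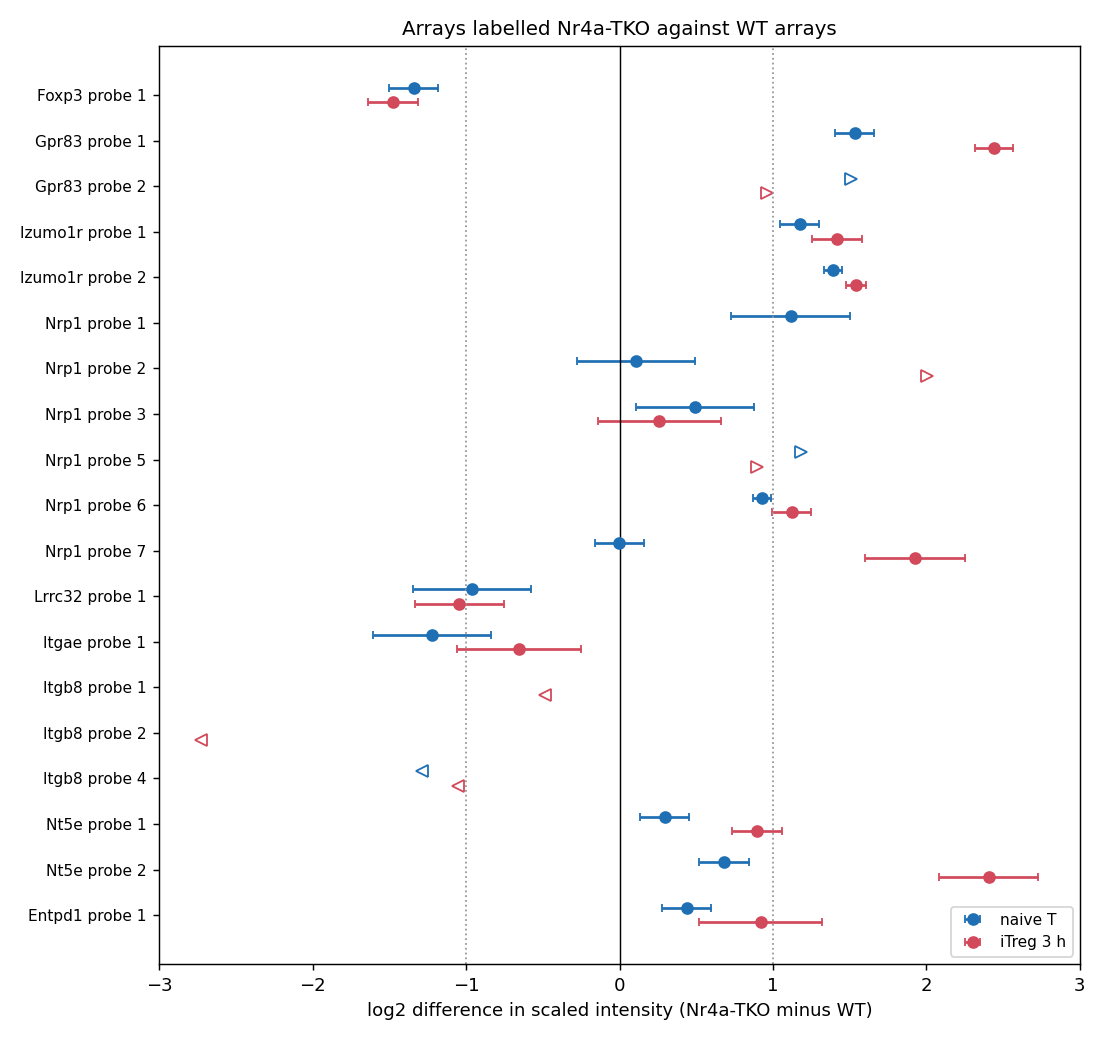
Log2 difference between the Nr4a-TKO and WT arrays for every member probe above background somewhere, in naive T (blue) and at 3 h (red); bars are ±1 SD of repeated spots, open triangles are bounds and dotted lines mark 2-fold. Foxp3, Lrrc32, Itgae and Itgb8 lie to the left of 0 and Gpr83, Izumo1r and Nt5e to the right.

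Counted over probes, the members differed between the genotypes more often than the array at large. Of 17 member probes with a value in naive T, 6 were over 2-fold higher and 3 over 2-fold lower in Nr4a-TKO, where 2.82% and 2.56% of 39028 probes were. At 3 h the counts were 7 higher and 4 lower of 18, against 2.85% and 2.73% of 39791. The median log2 difference of the members was 0.49 in naive T and 0.91 at 3 h, and that of all probes -0.01 and 0.02. Probes of 1 gene share their target, so these counts are not counts of independent genes. The members were also chosen with earlier results of these data known, and some of the counted differences are bounds. Their excess over all probes is therefore a description and lends no support. Between naive T and 3 h there were 2 higher and 6 lower of 17 in WT, against 11.1% and 11.7% of 39395 probes, and 2 higher and 2 lower of 16 in Nr4a-TKO, against 10.1% and 10.7% of 40285. Apart from the 6 lower probes in WT, these shares lie near the background. Median changes of the members were -0.63 in WT and -0.51 in Nr4a-TKO, against -0.07 and -0.02 for all probes.

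**Figure D4:**
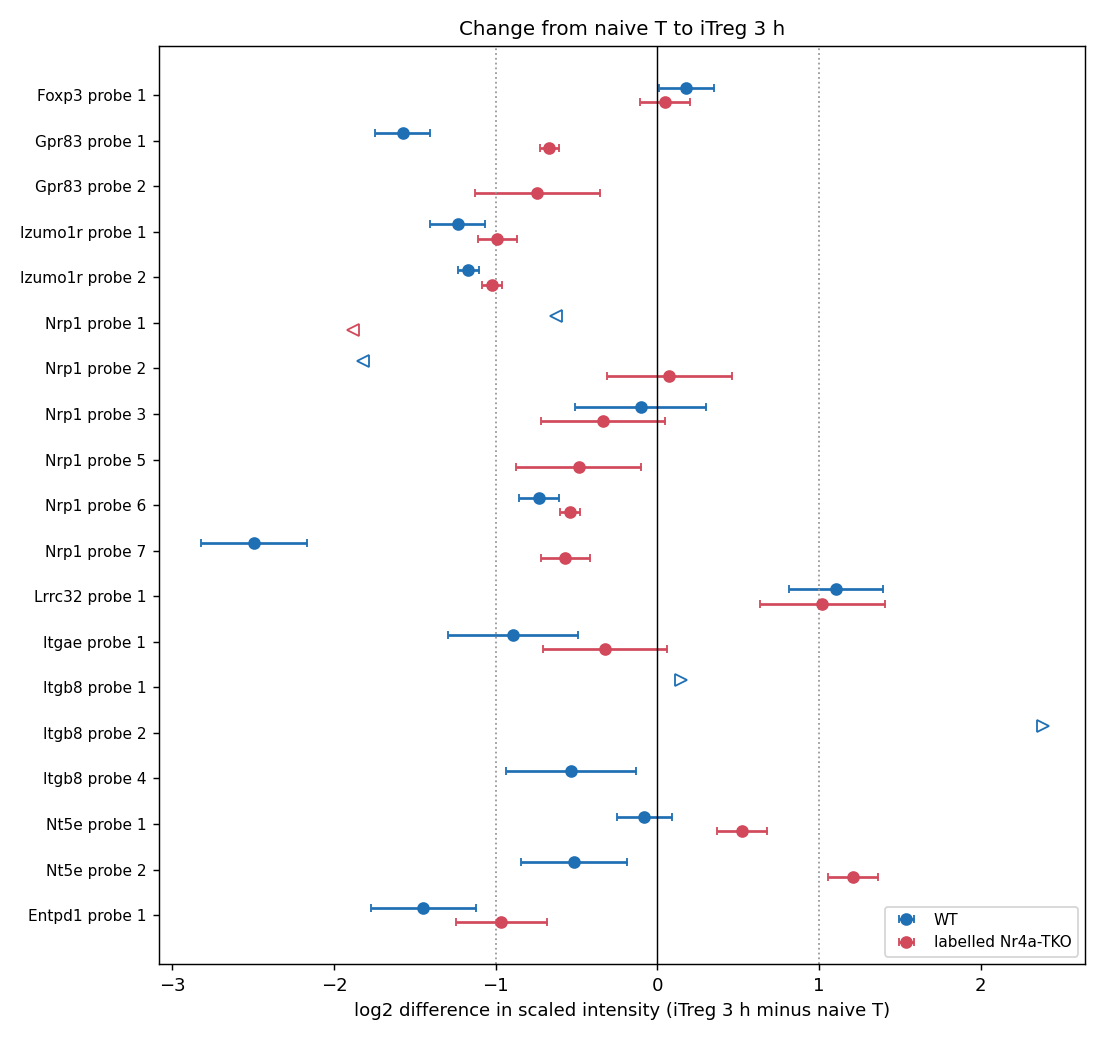
Log2 change from naive T to iTreg 3 h of each member probe in WT (blue) and Nr4a-TKO (red), with ±1 SD of repeated spots, open triangles for bounds and dotted lines at 2-fold. Lrrc32 lies above 0 and Izumo1r below 0 in both genotypes, and Nt5e probe 2 lies above 2-fold in Nr4a-TKO and below 0 in WT.

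The change in culture itself was compared between the genotypes for the 12 member probes well above background on all 4 arrays. The difference (Nr4a-TKO change minus WT change) was over 2-fold for Nrp1 probe 7, at 1.93, and for Nt5e probe 2, at 1.73. Gpr83 followed at 0.91, Nt5e probe 1 at 0.61, Itgae at 0.57 and Entpd1 at 0.48. For the other 6 probes it lay between -0.23 and 0.25, and the background was 5.78% of 32959 probes over 2-fold, with a median of 0.02. Foxp3 (-0.13) and Lrrc32 (-0.08) were among these. With the steps of RMA the difference was 1.40 for Nrp1 probe 7, 1.34 for Nt5e probe 2 and 0.70 for Gpr83 probe 1. With an offset of 50 added after background correction, it was 0.62, 0.76 and 0.31 for the same probes, all under 2-fold.

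Genes known to act around the members were read from lists, as counts beside those of all genes. Of 23 regulators of Foxp3, none was over 2-fold apart between the genotypes in naive T, where 2.76% of 19514 genes were higher and 2.44% lower. Nfatc2, which encodes an NFAT factor, was the 1 regulator over 2-fold higher in Nr4a-TKO at 3 h (1.13), where 2.77% of 19846 genes were higher and 2.58% lower. In culture 4 regulators were over 2-fold higher and 4 lower in WT, and 3 and 3 in Nr4a-TKO, against 10.3% and 11.7% of 19612 genes in WT and 9.78% and 10.5% of 20029 in Nr4a-TKO. Gfi1 (3.74 in WT, 2.96 in Nr4a-TKO) and Rel (2.53, 2.76) were the most increased and Ets1 (-2.02, -1.89) the most decreased in both.

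Other Treg genes, 23 in the list, held larger differences between the genotypes than the regulators. In naive T 2 of 20 with a value were over 2-fold higher in Nr4a-TKO, Nrn1 (3.59) and Lag3 (1.47), and 5 were lower, Tnfrsf9 (-2.15), Klrg1 (-2.07, a bound) and Ccr4 (-1.97, a bound) the most. At 3 h 4 of 20 were higher, led by Nrn1 (3.44), Ebi3 (1.55, a bound) and Cd83 (1.36), and 3 were lower, Tnfrsf9 (-3.78), Tigit (-2.39) and Socs2 (-1.02, a bound). Tnfrsf9 encodes the costimulatory receptor 4-1BB and Tigit an inhibitory receptor. Ikzf2, which encodes Helios and is named here after its values were seen, differed by -1.47 in naive T and 0.16 at 3 h. In culture 8 of 20 were over 2-fold higher and 2 lower in WT, and 10 and 1 of 19 in Nr4a-TKO. The shares of all genes there were 10.3% higher and 11.7% lower in WT, and 9.78% and 10.5% in Nr4a-TKO. Between the genotypes they were 2.76% and 2.44% in naive T, and 2.77% and 2.58% at 3 h. The list was chosen with earlier results of these data known, so its excess is a description.

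The pathway partners of the members are given against the same background shares of all genes. Of 9 genes of TGF-β activation, Tgfb1, which encodes the cytokine that Lrrc32 holds, was over 2-fold higher after culture (1.57 in WT, 1.69 in Nr4a-TKO), and none differed by 2-fold between the genotypes. Of 10 genes of adenosine handling, Dpp4 (-3.09, -3.20) and the nucleoside carrier Slc28a2 (-1.70, -1.84) were lower and the carrier Slc29a1 (2.52, 1.77) higher in WT and Nr4a-TKO after culture, and Ada, adenosine deaminase, was lower in Nr4a-TKO naive T, with a bound of -1.63. Of the 7 partners of Nrp1 and Itgae, none differed over 2-fold between the genotypes. Itgb7, the β chain that pairs with Itgae, had a WT change of -3.54 and an Nr4a-TKO change of -3.65. Sema4a was also lower after culture (-3.78, -3.72, both bounds), Vegfa was higher (3.44, 2.72), and Plxna1 was 1.15 higher in Nr4a-TKO. Among 14 relatives of the members, Foxp4 was 1.06 higher in Nr4a-TKO naive T, and Folr2 was lower at 3 h, with a difference of -1.14. After culture Entpd5 (-2.55 in WT, -1.94 in Nr4a-TKO) and Itgb3 (-1.07, -1.01) were lower. Foxp4 (2.05) and Folr2 (1.30, a bound) were higher in WT, and under 2-fold apart in Nr4a-TKO.

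The genes whose 4 values ran most like each member were found by the root mean square distance of the 4 log2 values after centring, over 15642 genes, for the 7 members whose brightest probe was well above background on all 4 arrays and spanned over 2-fold. Nt5e spanned less and Itgb8 was dim on some arrays, so neither was compared. For Foxp3 the nearest were Vmn2r98 (0.09), Lysmd2 (0.11) and Gm34289 (0.18). For Gpr83 they were Endod1 (0.13), Anxa2 (0.25) and Wdfy4 (0.26), and for Izumo1r Ptpn3 (0.07), Hmgn3 (0.13) and Anxa2 (0.14). Lysmd2 read 276.7, 110.4, 301.3 and 93.8, and Ptpn3 read 48.2, 120.7, 18.8 and 60.2, on the arrays in the order used above. For Nrp1 the nearest were H2-Q5 (0.03), Glo1 (0.08) and Slc36a3os (0.08), for Lrrc32 Gfer (0.04), Gm3383 (0.09) and Gm10413 (0.11), for Itgae 1700006H20Rik (0.07), 2700046G09Rik (0.09) and Mical3 (0.10), and for Entpd1 Tstd3 (0.04), Pitpnm1 (0.05) and Prr13 (0.05). A profile of 4 arrays has few ways to differ, so likeness of this kind is a description.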

How the data were processed

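Mouse RNA from 4 groups was measured on 1 Agilent single-colour array each, all on 1 slide and in 1 scan. For each array the authors deposited the Feature Extraction output (version 11.5.1.1), with processed intensities, which are background-subtracted, and flags, and a value table on the log2 scale. Probe coordinates are on mm9. The deposited log2 table equals log2 of the processed intensity minus each array's 75th percentile, with an SD of at most 0.0029 over single-spot probes, although the methods name RMA in GeneSpring. Its column medians ran from -2.33 to -2.16.

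Here log2 processed intensities were averaged over the spots of a probe, leaving out controls and flagged outliers, and each array's 75th percentile was subtracted. This was the main setting because the deposited table has that scale, and the steps of RMA were an alternative. A 2-fold difference was the description used, since there was 1 array a group and no test was run. A dim probe was raised to the lowest well-above-background signal of its array. Of 56605 probes, 41700 carry a current symbol, 1518 were named by transcript, 520 by synonym, 2574 keep the files' name and 10293 are unnamed, with RefSeq's GRCm38.p6 table used for names and gene order. A gene took its brightest probe, except for members. Spot error came from other probes with at least 5 spots. The rule for named genes was every member, at most 3 genes of a list in each direction, and the 3 nearest by profile. The members and lists were chosen with earlier results of these data known. The comparison was run on simulated data, with added changes past 2-fold on well-above-background probes and spot error alone. That run did not cover dim probes, bounds or differences between animals. Versions were R 4.3.3, limma 3.58.1, data.table (1.17.8), Python 3.11.15, pandas 2.3.3, numpy 2.4.6 and matplotlib 3.10.9. The number of arrays limits the precision.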

Additional observations from a re-analysis of the deposited data

Results flagged for a closer look

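Nt5e probe 2 had changes of opposite sign in the genotypes, with a WT change of -0.52 and an Nr4a-TKO change of 1.21 from naive T to 3 h on the log2 scale, a difference of 1.73. The WT change was -0.20 with the steps of RMA, and Nt5e probe 1 had a WT change of -0.08, within its spot error. Also, with 1 array a group the difference was not tested. Under the alternatives the difference ran from 0.76, with an offset of 50 after background correction, to 1.74.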

How the results depend on the processing

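No member difference past 2-fold changed its sign under any alternative run. Of the 32 member differences over 2-fold, 7 stayed so under every alternative that gave a value: Gpr83 probe 1 and Izumo1r probe 2 in WT culture and in both comparisons of the genotypes, and Nt5e probe 2 at 3 h. With the steps of RMA 8 of the 32 were under 2-fold, and with an offset of 50 after normexp 24 were. That setting differs from the main one in background correction, normalization and offset together, and it did not shrink every difference: Izumo1r probe 2 in Nr4a-TKO culture went from -1.02 to -1.18. Over all probes the counts at 3 h were 1136 higher and 1088 lower, 650 and 753 with the RMA steps, and 119 and 154 with the offset of 50. The deposited table and keeping flagged spots, which was added after the data were seen, left all 8 counts within 1.5 times. The counts were, for higher and then lower, 2 and 6 in WT culture, 2 and 2 in Nr4a-TKO culture, 6 and 3 in naive T, and 7 and 4 at 3 h. With RMA steps the Nr4a-TKO culture count higher was 1, the naive T count lower 1 and the 3 h count lower 2. With an offset of 50 the counts were 0 and 2, 0 and 1, 2 and 0, and 3 and 0. Without background correction they were 0 and 3, 0 and 1, 3 and 1, and, lower at 3 h, 2. With the median of bright probes, lower in Nr4a-TKO culture was 1, and with both arrays above background it was 1, with 1 higher in WT culture and 2 lower at 3 h. Without a filter lower in Nr4a-TKO culture was 4. At 1.5-fold it was 6, with 11 higher at 3 h, and at 3-fold the counts were 1 and 2, 0 and 1, 0 and 0, and 4 and 1. Taking the mean of a gene's probes moved no list count by more than 2. No paired analysis was possible because each group has 1 array, and for the same reason no replicate could be left out. Probes under a scaled intensity of 30 have a spot SD of a difference of 0.37 to 0.43, taken from 8 to 14 probes an array. This limits Lrrc32, Itgae, Itgb8, Entpd1 and Gpr83 probe 2, and the values under 30 of Nrp1 and of Nt5e probe 2.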
